A study of Mus musculus with 39 samples.

Results

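The 10 tumours richest in fibrillar collagen transcripts were compared with the 10 poorest, among 39 mouse melanomas profiled by bulk RNA sequencing. The 20 libraries were chosen by measured values: for each library a score was taken as the mean of log2(CPM + 1) of Col1a1, Col1a2 and Col3a1, where CPM is a count divided by the library total and scaled to 1e+06. All libraries were ranked on it whatever the treatment. The 3 ranking genes are not reported as findings, and the class difference in the score is a description of the choice. The score ran from 11.8 to 13.2 in the collagen-rich libraries (median 12.4) and from 10.3 to 10.7 in the collagen-poor ones (median 10.5), and the 19 libraries between them spanned 10.7 to 11.8. At the upper edge EPAT day 5 replicate 4 was the last library inside at 11.83, and combination day 5 replicate 1 was the first outside at 11.79. At the lower edge EPAT day 5 replicate 3 was inside at 10.69 and combination day 2 replicate 5 was outside at 10.72.

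Fibrillar collagens are made by fibroblasts, myofibroblasts and pericytes as procollagen chains, which are hydroxylated, folded into triple helices, trimmed after secretion and crosslinked by lysyl oxidases. In tumours this stroma surrounds vessels and nests of cancer cells, and transforming growth factor beta and platelet-derived growth factor are classic signals that drive it. Because the tissue was sequenced in bulk, fewer cells of a type and less RNA per cell cannot be told apart in any difference given here.

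The tumours were Braf-mutated melanomas in C57BL/6 mice, grown from injected cells kept in culture, and treatment started on day 7 after injection. Mice received the DMSO-PEG400 vehicle, anti-PD-1 (antibody doses of 200 µg, against a brake on T cells), EPAT or both, here called the combination, for 2 or 5 days. EPAT, given at 30 mpk, blocks EP2 and EP4, through which cells sense prostaglandin E2. Each of the 8 groups had 5 libraries, apart from anti-PD-1 on day 2 with 4. The labels' extraction text names day 4, which is neither time point, and the time point given for each sample was used. The collagen-rich class held anti-PD-1 day 5 replicates 3 and 4, combination day 2 replicate 2, vehicle day 5 replicate 3, EPAT day 5 replicates 1, 5 and 4, and combination day 5 replicates 5, 3 and 4. The collagen-poor class held EPAT day 5 replicate 3, anti-PD-1 day 2 replicate 3, combination day 2 replicates 4, 1 and 3, EPAT day 2 replicate 5, vehicle day 2 replicates 2 and 3, vehicle day 5 replicate 4 and anti-PD-1 day 5 replicate 1.

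Collagen-rich tumours were mostly from day 5. That time point held 9 of the 10 collagen-rich and 3 of the 10 collagen-poor tumours (Fisher's exact test, 2-sided, p = 0.0198, adjusted over 4 labels 0.0791, which misses 0.05; odds ratio 17.3 with 95% interval 1.39 to 1039). Anti-PD-1 had been given to 6 of the rich and 5 of the poor (exact p = 1, adjusted 1), and EPAT to 7 and 5 (exact p = 0.650, adjusted 1). Because day was unbalanced, the counts of tested lists in which genes passed are also given from a fit with day, anti-PD-1 and EPAT as added terms. Within day 2 that fit sets 1 collagen-rich library, combination day 2 replicate 2, against 7 collagen-poor ones, so this library weighs on its results. For some lists the day 5 libraries alone, 9 rich against 3 poor, are given too.

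Total counts averaged 12068900 ± 1524210 (SD, n = 10) in the rich and 11647800 ± 1909500 (SD, n = 10) in the poor libraries, a difference smaller than their spread (permutation test, 2-sided, p = 0.589). The melanocyte genes of the labelled tumour type were nearly silent: Tyrp1 had no count in any of the 39 libraries, Tyr was at 0 in 38 and Dct in 32, while Mitf, their regulator, was present at 30.7 to 83.0 CPM. Combination day 2 replicate 2, the only collagen-rich day 2 library, stood apart in immune and hypoxia genes. Anti-PD-1 day 5 replicate 4 held the most skeletal muscle transcripts, and in the collagen-poor EPAT day 5 replicate 3 the gene Gm42418, which overlaps ribosomal RNA sequence, took 12.9% of counts against a class median of 3.17%. Its share was raised in other libraries too. It was 8.59% and 8.22% in the collagen-rich anti-PD-1 day 5 replicate 4 and combination day 5 replicate 4. In the collagen-poor vehicle day 2 replicate 2 and anti-PD-1 day 5 replicate 1 it was 6.99% and 6.80%. Among the 19 libraries between, it reached 10.7%. Lung surfactant and secretoglobin transcripts were found in 3 of 10 rich and 7 of 10 poor libraries. Found means more than 30 counts over Sftpc, Sftpa1 and Scgb1a1 together. Such libraries mostly had the lower S numbers in the sample titles, and the labels do not say what that number stands for. The classes differed in it too, and its part was not tested beyond a fit with lung transcripts as a term, given below.

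**Figure D1:**
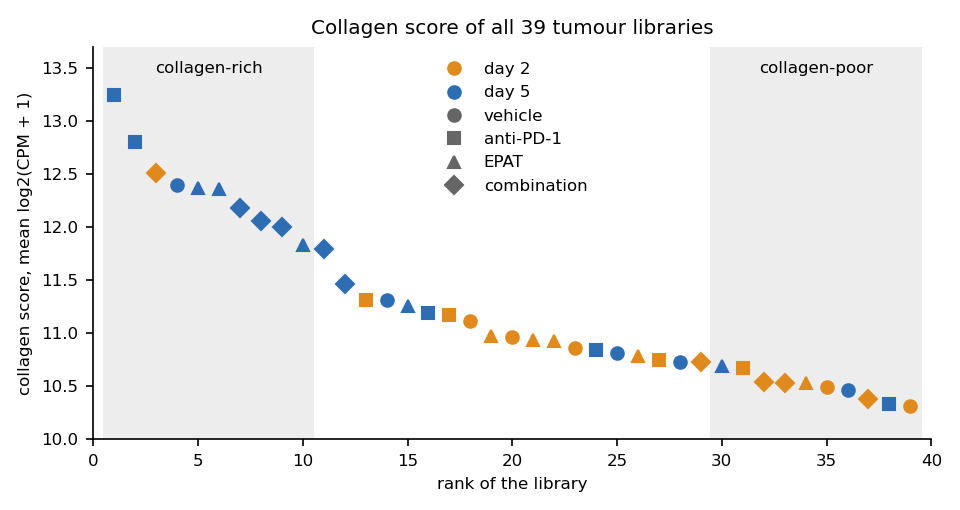
Collagen score (mean log2(CPM + 1) of the 3 ranking genes) against rank for all 39 libraries, coloured by day and shaped by treatment, with the ranked ends shaded. Of the 10 libraries in the collagen-rich shading 9 are from day 5, and of the 10 in the collagen-poor shading 3 are.

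Of 13734 genes tested, the ranking genes left out, 1752 were higher in the collagen-rich tumours (12.8%) and 1507 were lower (11%) at an edgeR adjusted p under 0.05. With the day and treatment terms 1052 were higher (7.66%) and 653 lower (4.75%). In 176 genes every rich library lay above every poor one (1.28%), and in 23 every rich library lay below (0.167%). The median log2 fold change over all genes was -0.03. Among day 5 libraries alone 1383 of 14588 genes were higher and 926 lower. Without combination day 2 replicate 2, of 13795 genes 2080 were higher and 1873 lower. These tests ask whether a gene varied with the collagen score across tumours, not whether a treatment changed it, and list counts below are read against these shares. In the text CPM is scaled by edgeR's TMM factors, fold changes are log2 of rich over poor with their standard error, and p-values are from edgeR's quasi-likelihood test adjusted over all genes tested. The labels do not say that each library is a separate animal, so the p-values speak only of how these samples scattered, which may be technical.

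**Figure D2:**
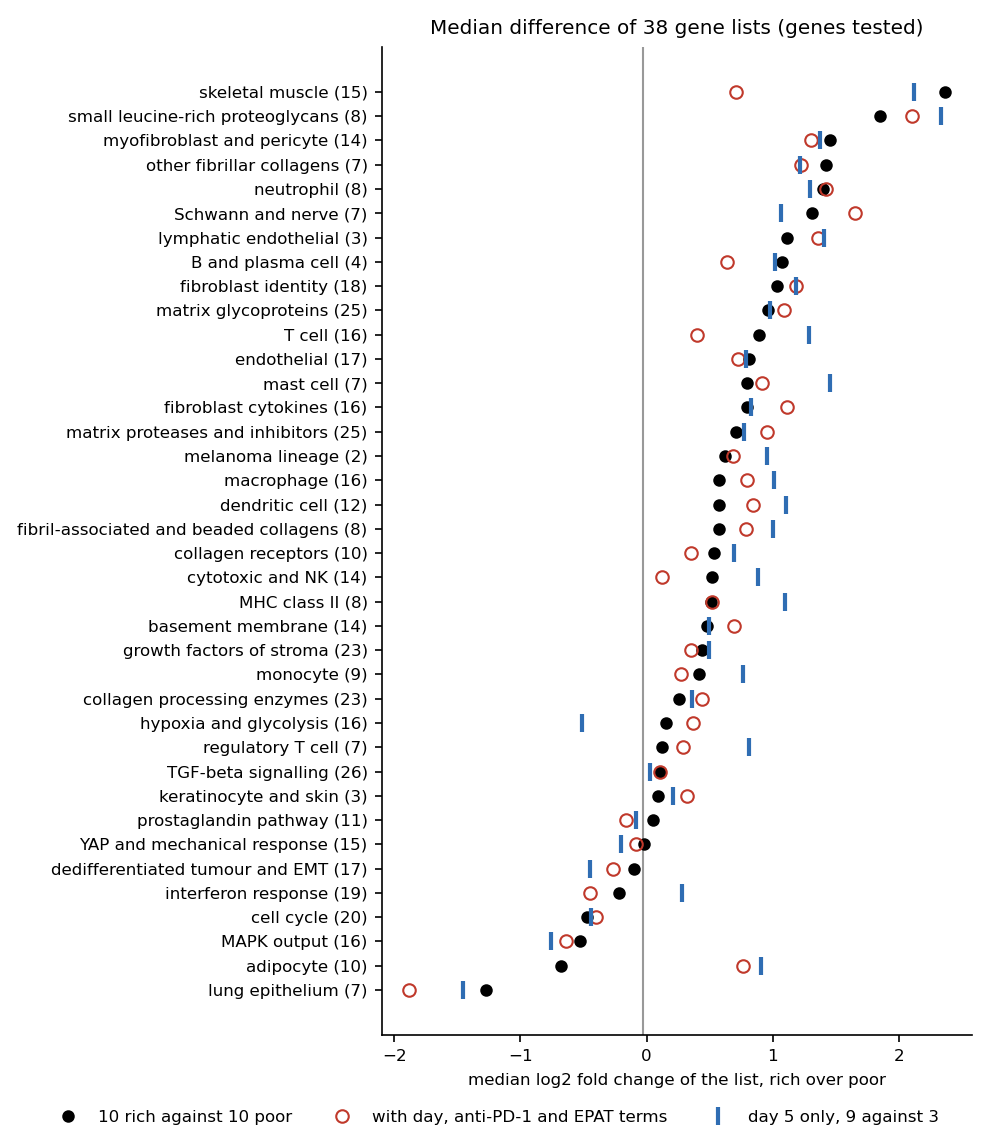
Median log2 fold change, collagen-rich over collagen-poor, for each of 38 gene lists (number of genes tested in brackets), with the grey line at the median of all genes, -0.03. Filled points are the 10 against 10 comparison, open circles the fit with day and treatment terms, and bars the day 5 libraries; collagen and stromal cell lists lie to the right, cell cycle (-0.48) and MAPK output (-0.53) to the left, and the adipocyte list is left of 0 in the first and right of it in the others.

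Genes of the matrix itself, which are made with the ranking genes, are described without a test. All 7 measured members of the other fibrillar collagens had higher fitted levels in the rich tumours, with a median log2 fold change of 1.42. Col5a1, which nucleates collagen fibrils, was at 129 to 199 CPM (median 172) in the collagen-poor and 352 to 736 CPM (median 483) in the collagen-rich tumours. Every rich library lay above every poor one. Of the 8 fibril-associated and beaded chains 7 had positive fold changes, and Col6a3, a chain of the microfibrils around cells, was at 122 to 248 CPM (median 159) in the collagen-poor and 274 to 848 CPM (median 501) in the collagen-rich tumours. Col8a1, a short-chain collagen, went the other way with 360.2 to 609.6 CPM (median 534) in the collagen-poor and 203 to 449.7 CPM (median 307) in the collagen-rich tumours. Of 14 basement membrane genes 10 were positive (median 0.48): Lama4, a laminin chain of vessel walls, was 31.1 to 61.1 CPM (median 42.5) in the collagen-poor and 71.1 to 118 CPM (median 91.8) in the collagen-rich tumours, again without overlap.

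Among 23 genes that process collagen, 19 had positive fold changes but the median was only 0.26. In 5 of them every rich library lay above every poor one. P4ha3, a subunit of a prolyl hydroxylase, was at 6.51 to 14.5 CPM (median 10.2) in the collagen-poor and 24.7 to 66.3 CPM (median 30.8) in the collagen-rich tumours. Lox and Loxl2, which crosslink fibres, had log2 fold changes of 1.50 ± 0.21 and 1.31 ± 0.15, and their groups did not overlap. The small leucine-rich proteoglycans, which bind fibrils and set their spacing, had the widest differences of the matrix lists (median 1.85, 7 of 8 positive). Biglycan (Bgn) was at 96.5 to 267 CPM (median 144) in the collagen-poor and 413 to 1326 CPM (median 664) in the collagen-rich tumours without overlap. Decorin (Dcn) was at 265 to 1178 CPM (median 530.0) in the collagen-poor and 910.3 to 4486 CPM (median 1908) in the collagen-rich tumours, with overlap. Of 25 matrix glycoproteins 22 were positive (median 0.96), such as fibulin 1 (Fbln1) at 4.83 to 15.5 CPM (median 9.94) in the collagen-poor and 23.9 to 89.9 CPM (median 36.5) in the collagen-rich tumours. Enzymes that cut the matrix went the same way: 21 of 25 proteases and inhibitors were positive, and Mmp2, a gelatinase, was at 48.5 to 104 CPM (median 71.8) in the collagen-poor and 130.0 to 579 CPM (median 236) in the collagen-rich tumours.

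Markers of the cells that make collagen were also kept free of a test. Lists tested below also hold genes of those cells, such as Itga11 and Cxcl12. A pass there says only that the gene went with the ranking genes, which the ranking itself favours. In the fibroblast list 12 of 18 genes were positive with a median of 1.03, and in the myofibroblast and pericyte list all 14 were, with 1.45. Pdgfra, the fibroblast receptor for platelet-derived growth factor, was at 28.4 to 65.7 CPM (median 52) in the collagen-poor and 57 to 182 CPM (median 125) in the collagen-rich tumours. Lrrc15, a marker of myofibroblasts in tumours, was at 11.4 to 28 CPM (median 16.7) in the collagen-poor and 25.2 to 109.8 CPM (median 69.7) in the collagen-rich tumours. Rgs5, a pericyte gene, was at 14.2 to 34 CPM (median 24.9) in the collagen-poor and 52.9 to 195 CPM (median 84.4) in the collagen-rich tumours. For Rgs5 the groups did not overlap, for Pdgfra and Lrrc15 they did. Acta2, smooth muscle actin, was at 8.48 to 43.2 CPM (median 18.5) in the collagen-poor and 22.2 to 356 CPM (median 56.8) in the collagen-rich tumours. Its highest value was in anti-PD-1 day 5 replicate 4, the library with the most muscle transcripts. Twist1, a mesenchymal transcription factor in the fibroblast list, went the other way, 34.3 to 166 CPM (median 73.1) in the collagen-poor and 22 to 62.7 CPM (median 47.2) in the collagen-rich tumours.

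Receptors through which cells sense collagen were tested, and 5 of 10 rose and 1 fell. The 1 that fell lies near the 11% of all genes lower. Itga11, the collagen-binding integrin of fibroblasts, was at 0 to 2.53 CPM (median 0.402) in the collagen-poor and 2.99 to 15.2 CPM (median 5.77) in the collagen-rich tumours, with no overlap. Itga11 had a log2 fold change of 3.35 ± 0.54 (SE, edgeR adjusted p = 0.000244). Mrc2, an endocytic collagen receptor, also rose (log2 fold change 1.11 ± 0.24 (SE), edgeR adjusted p = 0.00295). Ddr1, a collagen-activated kinase of epithelial and tumour cells, fell from a median of 45.8 to 31.7 CPM (log2 fold change -0.58 ± 0.14, adjusted p = 0.00466). Ddr2, its mesenchymal counterpart, was at 218 to 324 CPM (median 269) in the collagen-poor and 153 to 337 CPM (median 260.3) in the collagen-rich tumours and did not pass. Ddr2 had a log2 fold change of -0.14 ± 0.13 (SE, edgeR adjusted p = 0.439). The counts with the day and treatment terms were 5 and 1.

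The transforming growth factor beta list moved in both directions, 6 of 26 genes up and 4 down, with a median of 0.11. Only 3 were up and 3 down with the day and treatment terms. The ligand Tgfb1 was at 21.8 to 46.3 CPM (median 37.6) in the collagen-poor and 22.7 to 57.5 CPM (median 40.5) in the collagen-rich tumours and did not pass. Tgfb1 had a log2 fold change of 0.23 ± 0.16 (SE, edgeR adjusted p = 0.308). Higher were Lrrc32, which holds the latent ligand on cell surfaces (log2 fold change 1.11 ± 0.20, adjusted p = 0.000655), and the receptor Tgfbr2 (log2 fold change 0.60 ± 0.14, adjusted p = 0.00372). Ltbp2, a matrix protein of the LTBP family, was higher too (log2 fold change 2.15 ± 0.39, adjusted p = 0.000733). Lower were Ltbp1, a latency protein (log2 fold change -0.70 ± 0.20, adjusted p = 0.018), Fst, an activin antagonist (log2 fold change -0.93 ± 0.28, adjusted p = 0.0196), and with them Ltbp4 and Itgav. The count of lower genes was 2 when any of 7 libraries was left out (EPAT day 2 replicate 5, anti-PD-1 day 5 replicates 1, 3 and 4, combination day 5 replicate 3, vehicle day 2 replicates 2 and 3). Ltbp2 did not pass with the day and treatment terms (log2 fold change 1.38 ± 0.61, adjusted p = 0.148).

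Growth factors of the stroma rose in 9 of 23 cases and fell in 1, and with the day and treatment terms in 6 and 1. The 1 that fell is a smaller share than the 11% of all genes lower. Sfrp2, a secreted modulator of Wnt signalling, was at 6.13 to 32.2 CPM (median 16.4) in the collagen-poor and 28.1 to 246 CPM (median 79) in the collagen-rich tumours. Sfrp2 had a log2 fold change of 2.45 ± 0.35 (SE, edgeR adjusted p = 5.78e-05). Igf1, insulin-like growth factor 1, was at 16.8 to 46.8 CPM (median 30.4) in the collagen-poor and 45.6 to 304 CPM (median 80.3) in the collagen-rich tumours. Igf1 had a log2 fold change of 1.95 ± 0.31 (SE, edgeR adjusted p = 0.000201). In each gene the ranges overlapped by a single pair, the highest poor library lying above the lowest rich one. Dkk2, a Wnt antagonist, was the gene that fell (log2 fold change -0.80 ± 0.26, adjusted p = 0.0296); 3 fell without EPAT day 5 replicate 4. Of 16 cytokine and complement genes of fibroblasts 5 rose and none fell, and with the day and treatment terms 8 rose. Cxcl12, a chemokine that holds leukocytes in stroma, was at 24.1 to 127 CPM (median 47.5) in the collagen-poor and 123 to 634 CPM (median 231) in the collagen-rich tumours. Cxcl12 had a log2 fold change of 2.07 ± 0.35 (SE, edgeR adjusted p = 0.000379). The highest poor library lay above the lowest rich one.

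Most vessel markers rose with collagen. Of 17 endothelial genes all had positive fold changes, 13 passed and none fell, with a median of 0.81. Kdr, the main receptor for vascular endothelial growth factor, was at 19.5 to 53.7 CPM (median 31.7) in the collagen-poor and 56.8 to 90.2 CPM (median 67.9) in the collagen-rich tumours, with no overlap. Kdr had a log2 fold change of 1.09 ± 0.15 (SE, edgeR adjusted p = 5.35e-05). Tie1, an endothelial receptor kinase, went from a median of 6.91 to 14.2 CPM (log2 fold change 1.20 ± 0.17, adjusted p = 7.89e-05). Vwf, the clotting factor stored in endothelium, went from 7.25 to 15 CPM (log2 fold change 1.28 ± 0.21 (SE), edgeR adjusted p = 0.000319). With the day and treatment terms 9 of the 17 passed, among day 5 libraries 11, and leaving out any 1 library gave 12 to 15. The mean log2 CPM of the list was 3.51 to 4.13 in the poor and 4.28 to 4.90 in the rich libraries, so that the classes did not overlap. Of 3 lymphatic genes 2 rose: Flt4, the receptor for vascular endothelial growth factor C (log2 fold change 1.99 ± 0.26 (SE), edgeR adjusted p = 2.45e-05), and Pdpn, which fibroblasts also express (log2 fold change 1.11 ± 0.22, adjusted p = 0.0016). Lyve1 did not pass (log2 fold change 0.22 ± 0.62, adjusted p = 0.821). The lymphatic count with the day and treatment terms was also 2.

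Genes of Schwann cells and nerve rose in 5 of 7 cases, and in 4 with the day and treatment terms. Ncam1, a neural adhesion molecule, was at 15.5 to 29.3 CPM (median 22.9) in the collagen-poor and 31.7 to 72.3 CPM (median 43.2) in the collagen-rich tumours. Ncam1 had a log2 fold change of 1.03 ± 0.15 (SE, edgeR adjusted p = 9.10e-05). Pmp22, a myelin protein also made by fibroblasts, was at 22.1 to 43.3 CPM (median 30.7) in the collagen-poor and 50.1 to 148 CPM (median 65.8) in the collagen-rich tumours. Pmp22 had a log2 fold change of 1.31 ± 0.21 (SE, edgeR adjusted p = 0.000191). In neither gene did the groups overlap.

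**Figure D3:**
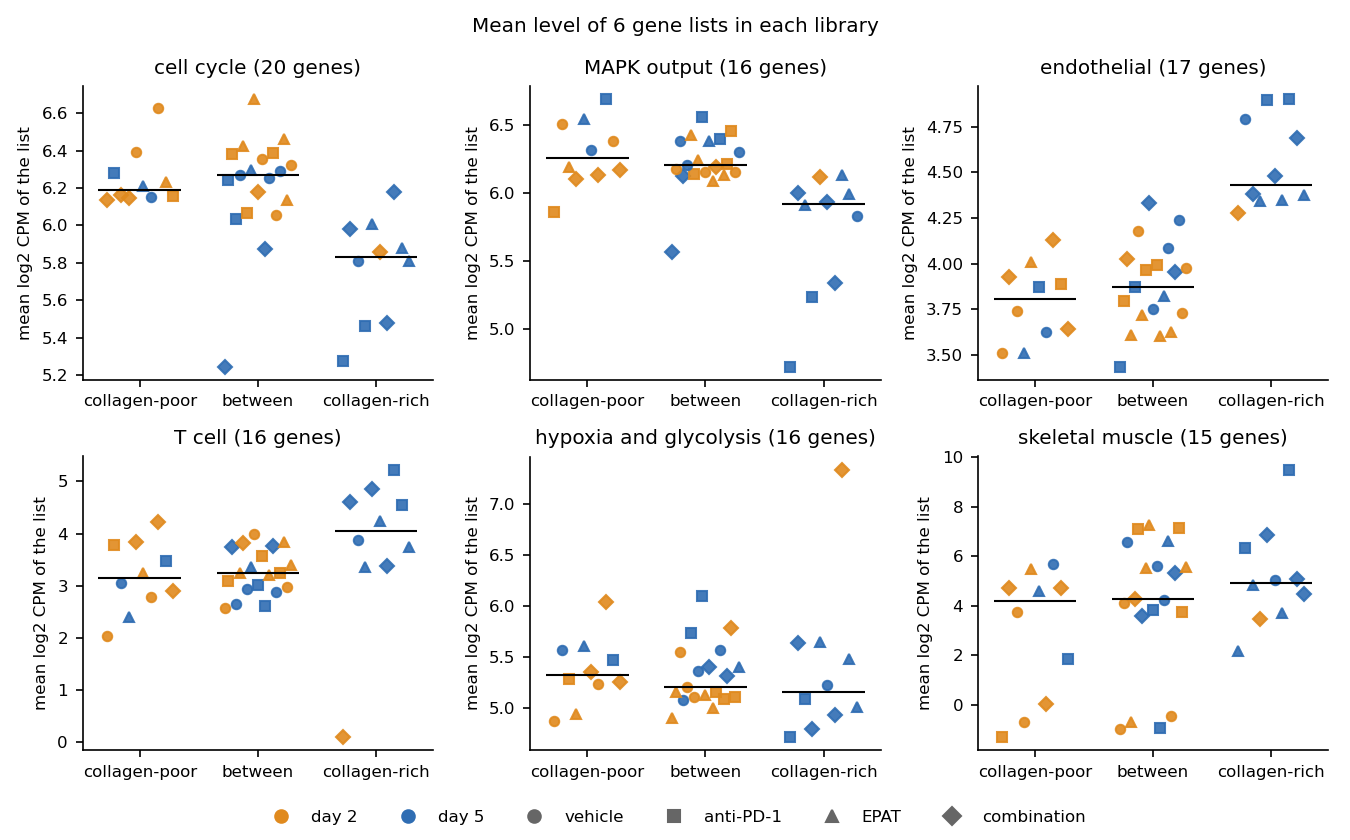
Mean log2 CPM of 6 gene lists in each library, for the collagen-poor (10), in-between (19) and collagen-rich (10) tumours, coloured by day and shaped by treatment, with bars at class medians. The endothelial panel shows no overlap between the ranked ends, and the low point of the T cell panel and the high point of the hypoxia panel are both combination day 2 replicate 2.

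The count of T cell genes called depended on the libraries and the tool used. None of the 16 passed in the 10 against 10 comparison by edgeR, although all 16 fold changes were positive (median 0.89). At an unadjusted p under 0.05 there were 10, DESeq2 called 7, and edgeR with RLE size factors 3. Cd8a, the co-receptor of cytotoxic T cells, was at 6.73 to 36.7 CPM (median 16.3) in the collagen-poor and 0.0917 to 91.7 CPM (median 38.4) in the collagen-rich tumours. Cd8a had a log2 fold change of 1.15 ± 0.46 (SE, edgeR adjusted p = 0.0719). The lowest of these values, 0.0917 CPM, was combination day 2 replicate 2, and the other 9 rich libraries ran from 17 to 91.7 CPM. Without that library 13 of the 16 genes rose (Cd8a log2 fold change 1.30, edgeR adjusted p = 0.00349). The count was 6 without EPAT day 5 replicate 4, 4 without combination day 2 replicate 1 and 3 without anti-PD-1 day 2 replicate 3. All the remaining rich libraries are from day 5 once combination day 2 replicate 2 is left out. Among day 5 libraries alone, 7 of the 16 passed with a median of 1.29, and with the day and treatment terms over all 20 libraries none did, with 0.40. The fit with terms includes combination day 2 replicate 2 as its only collagen-rich day 2 library. Of 14 cytotoxic and natural killer genes 1 passed, a smaller share than the 12.8% of all genes that were higher. With the day and treatment terms 0 passed, and 4 did without combination day 2 replicate 2. Pdcd1, the target of the antibody, was at 4.69 to 16.8 CPM (median 8.08) in the collagen-poor and 1.1 to 42 CPM (median 13.1) in the collagen-rich tumours and did not pass. Pdcd1 had a log2 fold change of 0.62 ± 0.40 (SE, edgeR adjusted p = 0.251). Its ligand gene Cd274 did not either (log2 fold change 0.04 ± 0.38, adjusted p = 0.947).

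All 16 macrophage genes had positive fold changes and 6 passed. Apoe, the lipid carrier of macrophages and other cells, was at 455 to 1385 CPM (median 945) in the collagen-poor and 1553 to 7203 CPM (median 1925) in the collagen-rich tumours. Apoe had a log2 fold change of 1.64 ± 0.29 (SE, edgeR adjusted p = 0.000495). All rich libraries were above all poor ones, and the top value was again in anti-PD-1 day 5 replicate 4; without that library 3 macrophage genes passed. Trem2, a lipid-sensing receptor, was at 12 to 21.9 CPM (median 17.7) in the collagen-poor and 21.1 to 50.6 CPM (median 24.2) in the collagen-rich tumours. Trem2 had a log2 fold change of 0.72 ± 0.16 (SE, edgeR adjusted p = 0.00295). The general marker Adgre1 was at 60.4 to 171 CPM (median 109) in the collagen-poor and 75.7 to 289 CPM (median 139.5) in the collagen-rich tumours and did not pass. Adgre1 had a log2 fold change of 0.55 ± 0.22 (SE, edgeR adjusted p = 0.0768). Of the list 5 passed with the day and treatment terms. Of 8 neutrophil genes 6 rose, but 1 did with those terms. S100a9, an abundant neutrophil protein, was at 4.02 to 60.0 CPM (median 20.5) in the collagen-poor and 10.4 to 416 CPM (median 103) in the collagen-rich tumours. S100a9 had a log2 fold change of 2.36 ± 0.52 (SE, edgeR adjusted p = 0.00306). Once the terms were added S100a9 did not pass (log2 fold change 2.50 ± 1.04, adjusted p = 0.127).

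In the mast cell list 3 of 7 rose, in the dendritic cell list 2 of 12, in the B and plasma cell list 2 of 4, in the monocyte list 1 of 9, in the regulatory T cell list 0 of 7 and in MHC class II 2 of 8, with no member of these 6 lists lower. The monocyte and dendritic cell counts lie near the 12.8% of all genes that were higher. With the day and treatment terms the counts higher were 1 for mast cells, 2 for dendritic cells, 0 for B and plasma cells, 1 for monocytes, 0 for regulatory T cells and 0 for MHC class II. The mast cell gene was Kit, which the melanoma lineage list also holds. In that fit 1 regulatory T cell gene was lower, the transcription factor Ikzf2 (log2 fold change -0.68 ± 0.19, adjusted p = 0.0273). The MHC class II count was 0 without any of EPAT day 5 replicate 3, EPAT day 2 replicate 5, anti-PD-1 day 5 replicates 3 and 4, combination day 5 replicates 3 and 4, vehicle day 2 replicates 2 and 3 or vehicle day 5 replicates 3 and 4, and 1 to 3 without any other library. For the regulatory T cell list there were 0 higher and 1 lower at an unadjusted p under 0.05, 0 and 0 by DESeq2. Of the mast cell list 5 passed without combination day 2 replicate 2, and of the dendritic cell list 4 without EPAT day 5 replicate 5 or without combination day 2 replicate 1. None of 19 interferon response genes passed by edgeR (median -0.22; 0 higher and 1 lower at an unadjusted p under 0.05, 0 and 0 by DESeq2). The chemokine Cxcl9 was one of those that did not pass (log2 fold change -0.37 ± 0.35, adjusted p = 0.455).

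Proliferation genes fell. Of 20 cell cycle genes 15 were lower in the collagen-rich tumours and none was higher, with a median of -0.48. Top2a, the topoisomerase of dividing cells, was at 987 to 1332 CPM (median 1237) in the collagen-poor and 426 to 1231 CPM (median 777) in the collagen-rich tumours. Top2a had a log2 fold change of -0.63 ± 0.13 (SE, edgeR adjusted p = 0.00229). Its groups overlapped because combination day 5 replicate 4, at 1231 CPM, lay within the poor range, while the other 9 rich libraries lay below all poor ones. Pcna, the sliding clamp of replication, fell from a median of 86.3 to 64.4 CPM (log2 fold change -0.50 ± 0.10, adjusted p = 0.002). Ccna2, cyclin A, fell from 66.4 to 44 CPM (log2 fold change -0.67 ± 0.14 (SE), edgeR adjusted p = 0.0016). With the day and treatment terms 7 of the 20 passed with a median of -0.40, among day 5 libraries 5 did with -0.44, and leaving out any 1 library gave 12 to 16. The mean log2 CPM of the list was 5.27 to 6.18 in the rich and 6.13 to 6.63 in the poor libraries.

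Promoters of the 20 tested cell cycle genes were searched, including the 5 that did not pass. Many such genes are known to carry the CHR element and CCAAT boxes, bound by the DREAM complex and by NF-Y. In RefSeq windows of 250 bases before to 50 after the start site (GRCm38.p6), 20 genes gave 18 matched windows. TTTGAA or TTCAAA, the CHR letters on either strand, was in 8 of 18 (44.4%) against 17.9% of all 32851 windows. CCAAT or ATTGG was in 15 (83.3%) against 37.4%, and both were in 8 (44.4%) against 6.95%. The motifs can overlap by at most 1 base. These shares describe letters in a window and were not tested. The following stretches of 100 bases, 5′ to 3′ on the gene's strand with both motifs in capitals, are from the 4 cell cycle genes with the smallest p that held both within 1 stretch, all on the minus strand: Top2a at chr11:99024188-99024287, Aurka at chr2:172370522-172370621, Cdk1 at chr10:69352893-69352992 and Mki67 at chr7:135716468-135716567.
Top2a: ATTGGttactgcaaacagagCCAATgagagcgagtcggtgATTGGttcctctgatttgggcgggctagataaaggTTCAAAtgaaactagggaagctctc
Aurka: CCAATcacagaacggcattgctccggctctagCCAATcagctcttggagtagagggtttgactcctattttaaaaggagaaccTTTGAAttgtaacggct
Cdk1: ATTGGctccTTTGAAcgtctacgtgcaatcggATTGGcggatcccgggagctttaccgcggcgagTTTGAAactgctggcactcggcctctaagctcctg
Mki67: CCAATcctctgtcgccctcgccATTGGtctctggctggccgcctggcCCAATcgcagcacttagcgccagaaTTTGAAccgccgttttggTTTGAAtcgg

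The mitotic kinase Aurka, whose stretch holds 3 matches, fell from a median of 38.7 to 24.6 CPM (log2 fold change -0.58 ± 0.13 (SE), edgeR adjusted p = 0.00278). Cdk1, the kinase that starts mitosis, also fell (log2 fold change -0.46 ± 0.16, adjusted p = 0.0433), as did the proliferation marker Mki67 (log2 fold change -0.43 ± 0.15, adjusted p = 0.0447). Aurka passed with the day and treatment terms (log2 fold change -0.61 ± 0.18, adjusted p = 0.0323). Cdk1 (log2 fold change -0.47 ± 0.20, adjusted p = 0.135) and Mki67 (log2 fold change -0.40 ± 0.20, adjusted p = 0.206) did not.

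Transcripts that report output of the MAPK cascade, the pathway that mutant Braf activates, fell in 6 of 16 cases. All 16 fold changes were negative (median -0.53). Ccnd1, cyclin D1, was at 1183 to 2248 CPM (median 1619) in the collagen-poor and 455 to 1567 CPM (median 1017) in the collagen-rich tumours. Ccnd1 had a log2 fold change of -0.77 ± 0.18 (SE, edgeR adjusted p = 0.00405). The lowest rich values were in anti-PD-1 day 5 replicates 4 and 3, at 455 and 597 CPM, and the ranges overlapped. Dusp4, a phosphatase that feeds back on ERK, was at 11.1 to 38.3 CPM (median 22.7) in the collagen-poor and 4.57 to 18 CPM (median 11) in the collagen-rich tumours. Dusp4 had a log2 fold change of -1.01 ± 0.24 (SE, edgeR adjusted p = 0.00514). With the day and treatment terms 5 passed with a median of -0.64, and among day 5 libraries 5 with -0.76. The count was sensitive to single libraries: it was 2 without anti-PD-1 day 5 replicate 3 or without combination day 5 replicate 3, 3 without anti-PD-1 day 5 replicate 1, vehicle day 2 replicate 3 or vehicle day 5 replicate 4, and 10 without combination day 2 replicate 2. The list's median stayed between -0.59 and -0.45 over the 20 fits that left out 1 library.

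Genes of dedifferentiated tumour cells and of epithelial-mesenchymal transition split, with 5 of 17 higher and 6 lower. Adding the day and treatment terms left 2 higher and 3 lower. Egfr, the epidermal growth factor receptor, which fibroblasts also carry, was at 8.59 to 18.9 CPM (median 11.2) in the collagen-poor and 21.3 to 75.4 CPM (median 33) in the collagen-rich tumours, without overlap. Egfr had a log2 fold change of 1.73 ± 0.20 (SE, edgeR adjusted p = 6.23e-06). Sox2, a stem cell transcription factor, fell (119 to 222 CPM (median 156) in the collagen-poor and 30.0 to 131 CPM (median 98.1) in the collagen-rich tumours; log2 fold change -0.86 ± 0.20, adjusted p = 0.0051). Axl, a receptor kinase of dedifferentiated melanoma, fell (log2 fold change -0.43 ± 0.12, adjusted p = 0.0182), and so did Vim, vimentin, which is abundant in both tumour and stroma (log2 fold change -0.51 ± 0.15, adjusted p = 0.0214). Mitf, the master regulator of the melanocyte lineage, was at 33.2 to 58 CPM (median 44.7) in the collagen-poor and 45.1 to 83 CPM (median 65.5) in the collagen-rich tumours. Mitf had a log2 fold change of 0.46 ± 0.12 (SE, edgeR adjusted p = 0.0116). It did not pass once the day and treatment terms were added (log2 fold change 0.46 ± 0.18, adjusted p = 0.103). The other tested gene of the melanoma lineage list, the receptor kinase Kit, rose (log2 fold change 0.79 ± 0.20, adjusted p = 0.0081) and passed with the terms as well (log2 fold change 0.91 ± 0.29, adjusted p = 0.049). Kit is also in the mast cell list and was counted in both lists. Of 15 YAP and mechanical response genes 1 rose and 3 fell, beside 12.8% of all genes higher and 11% lower. The secreted matricellular protein Ccn1 rose (log2 fold change 1.09 ± 0.20, adjusted p = 0.000621) but did not pass with the day and treatment terms (log2 fold change 0.77 ± 0.26, adjusted p = 0.0548). Axl, the adhesion protein Vcl (log2 fold change -0.42 ± 0.13, adjusted p = 0.03) and the caveolar protein Cav1 (log2 fold change -0.61 ± 0.20, adjusted p = 0.034) fell. In the fit with the terms 1 gene of the list rose, the transcription factor Srf (log2 fold change 0.48 ± 0.14, adjusted p = 0.0269), and 3 fell. The 3 falls became 1 when any of EPAT day 2 replicate 5, anti-PD-1 day 5 replicates 3 and 4, combination day 5 replicate 3, vehicle day 2 replicate 2 or vehicle day 5 replicate 4 was left out.

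**Figure D4:**
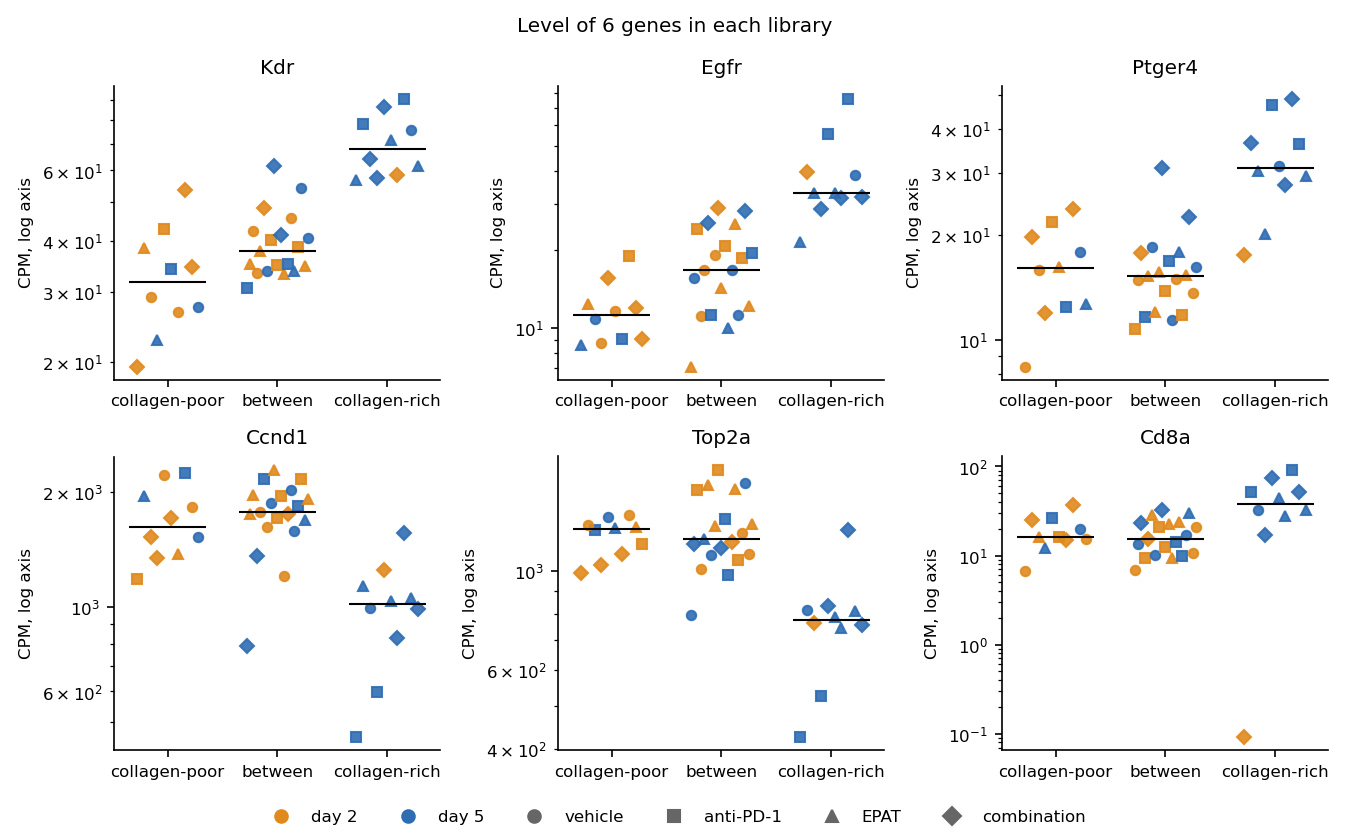
CPM (log axis) of 6 genes in each library by class, coloured by day and shaped by treatment, with bars at class medians. Kdr and Egfr do not overlap between the ranked ends, Ccnd1 and Top2a are lower in the collagen-rich tumours with 2 points and 1 point inside the poor range, and the lowest Cd8a point, 0.0917 CPM, is combination day 2 replicate 2.

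In the hypoxia and glycolysis list 2 of 16 genes rose, Adm and Car9, and both values turned on the same library. That count lies near the 12.8% of all genes that were higher. Car9, a carbonic anhydrase induced by low oxygen, was at 0.958 to 3 CPM (median 2) in the collagen-poor and 1.31 to 18.2 CPM (median 2.62) in the collagen-rich tumours. Car9 had a log2 fold change of 1.13 ± 0.41 (SE, edgeR adjusted p = 0.0474). Its level was 18.2 CPM in combination day 2 replicate 2 and at most 4.71 CPM in the other rich libraries. Without that library none rose and 2 fell, Ldha (log2 fold change -0.43, adjusted p = 0.0238) and Eno1 (-0.32, adjusted p = 0.0445), both glycolytic enzymes. The 2 that fell are near the share of all genes lower in that fit, 1873 of 13795. With all libraries and the day and treatment terms, Car9 did not pass (log2 fold change 1.10 ± 0.43, adjusted p = 0.104), and the 2 genes higher were Adm and the hexokinase Hk2.

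The prostaglandin pathway, which the EPAT treatment targets, had 4 of 11 genes higher and 2 lower. Ptger4, which encodes the receptor EP4, was at 8.42 to 23.6 CPM (median 16) in the collagen-poor and 17.4 to 48.5 CPM (median 30.9) in the collagen-rich tumours. Ptger4 had a log2 fold change of 1.01 ± 0.19 (SE, edgeR adjusted p = 0.00102). Only 2 rich libraries were below the highest poor value. Ptgir, the prostacyclin receptor, and Ptgis, which makes prostacyclin, were higher too (log2 fold change 0.92 ± 0.19, adjusted p = 0.00167; log2 fold change 1.09 ± 0.24, adjusted p = 0.00309). So was Hpgd, which breaks prostaglandins down (log2 fold change 2.22 ± 0.43, adjusted p = 0.00115). Lower were Ptges and Ptges3, both named as prostaglandin E synthases (log2 fold change -0.42 ± 0.14, adjusted p = 0.0382, and log2 fold change -0.39 ± 0.08, adjusted p = 0.00289). The activity of these enzymes was not measured. Ptgs2, the inducible cyclooxygenase, was at 31 to 311 CPM (median 89.3) in the collagen-poor and 24.4 to 109.9 CPM (median 62) in the collagen-rich tumours and did not pass. Ptgs2 had a log2 fold change of -0.72 ± 0.35 (SE, edgeR adjusted p = 0.135). It passed with the day and treatment terms (log2 fold change -1.16 ± 0.35, adjusted p = 0.0342). The counts with the terms were 2 higher and 2 lower. With the same terms Ptger4 (log2 fold change 0.84 ± 0.28, adjusted p = 0.0536), Hpgd (log2 fold change 1.84 ± 0.64, adjusted p = 0.0678) and Ptges (log2 fold change -0.45 ± 0.18, adjusted p = 0.114) did not pass.

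Among the 15 genes named for the largest increases were matrix genes and Itga11, and the others described here. Myh3, the embryonic myosin heavy chain, ran from 0 to 1.86 CPM in the poor and 0.183 to 141 CPM in the rich tumours. Myh3 had a log2 fold change of 5.35 ± 1.10 (SE, edgeR adjusted p = 0.00197). Its highest level was in anti-PD-1 day 5 replicate 4. The perinatal myosin Myh8 and the muscle gene Lmod3 had log2 fold changes of 4.18 ± 0.96 and 2.87 ± 0.85. Unc5c, a netrin receptor, was at 0.158 to 0.962 CPM (median 0.299) in the collagen-poor and 1.1 to 11.7 CPM (median 3.94) in the collagen-rich tumours, without overlap. Unc5c had a log2 fold change of 3.35 ± 0.42 (SE, edgeR adjusted p = 1.45e-05). Draxin, a secreted axon guidance protein, and Nfasc, an adhesion molecule of axons, were higher as well (log2 fold change 3.09 ± 0.51, adjusted p = 0.00029; log2 fold change 2.93 ± 0.40, adjusted p = 3.78e-05). Igf2, a growth factor expressed from an imprinted locus, was at 0.0805 to 3.64 CPM (median 1.56) in the collagen-poor and 1.24 to 107 CPM (median 7.19) in the collagen-rich tumours. Igf2 had a log2 fold change of 3.77 ± 0.77 (SE, edgeR adjusted p = 0.00172). Cdkn1c, a cell cycle inhibitor that is also imprinted, had a log2 fold change of 3.16 ± 0.51 (adjusted p = 0.000252). With day and treatment as terms Myh3 (log2 fold change 2.49 ± 1.48, adjusted p = 0.289), Myh8 (log2 fold change 3.92 ± 2.00, adjusted p = 0.213), Lmod3 (log2 fold change 1.98 ± 1.56, adjusted p = 0.432) and Igf2 (log2 fold change 2.54 ± 1.25, adjusted p = 0.196) did not pass.

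Decreases were smaller. Of the 15 lower genes kept by size, 2 had no overlap between libraries, Kcnip1 and Elovl6. Kcnip1, a potassium channel partner, was at 3.72 to 9.74 CPM (median 6.6) in the collagen-poor and 1.18 to 3.71 CPM (median 2) in the collagen-rich tumours. Kcnip1 had a log2 fold change of -1.50 ± 0.22 (SE, edgeR adjusted p = 0.000104). Elovl6, which lengthens fatty acids, was at 23.6 to 64.8 CPM (median 33.7) in the collagen-poor and 5.5 to 22.8 CPM (median 14.1) in the collagen-rich tumours. Elovl6 had a log2 fold change of -1.36 ± 0.24 (SE, edgeR adjusted p = 0.000522). Ak5, an adenylate kinase, and Ano3, of the anoctamin family, were lower too (log2 fold change -1.20 ± 0.22, adjusted p = 0.000762; log2 fold change -1.24 ± 0.21, adjusted p = 0.000326). Peg10, an imprinted gene derived from a retrotransposon, went from a median of 17.6 to 8.13 CPM (log2 fold change -1.15 ± 0.25, adjusted p = 0.00294). Scd1, another enzyme of fatty acid synthesis, fell as well (log2 fold change -0.78 ± 0.21, adjusted p = 0.0132) and was the only one of 10 adipocyte genes to pass. That count lies near the 11% of all genes that were lower. Scd1 did not pass with the day and treatment terms (log2 fold change -0.70 ± 0.28, adjusted p = 0.115). In that fit 1 adipocyte gene was higher, the fatty acid carrier Fabp4 (log2 fold change 2.16 ± 0.53, adjusted p = 0.013), none was lower, and the list's median was 0.77 in place of -0.68.

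Genes of muscle, lung and skin were listed as well, and whether their transcripts came from tissue next to the tumour was not tested. All 15 muscle genes had positive fold changes with a median of 2.37, and 4 passed. None passed with the day and treatment terms (median 0.71) or without anti-PD-1 day 5 replicate 4 (median 0.93). The count was 10 without EPAT day 5 replicate 4, 7 without EPAT day 5 replicate 5 or combination day 2 replicate 2. It was 1 or 2 without any of EPAT day 5 replicate 3, anti-PD-1 day 2 replicate 3, anti-PD-1 day 5 replicates 1 and 3, combination day 2 replicates 1, 3 and 4, combination day 5 replicate 3 or vehicle day 2 replicates 2 and 3. The mean log2 CPM of the muscle list was 2.19 to 9.49 in the rich and -1.30 to 5.70 in the poor libraries. With that score as a term 1336 genes passed in place of 3259. Endothelial genes higher were 9 in place of 13, cell cycle genes lower 11 in place of 15 and MAPK output genes lower 2 in place of 6. None of 7 lung genes passed by edgeR (median -1.28; 0 higher and 0 lower at an unadjusted p under 0.05, 0 and 0 by DESeq2). None of 3 skin genes passed (0 higher and 1 lower at an unadjusted p under 0.05, 0 and 0 by DESeq2). The part of muscle in these results was not tested beyond that term.

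The 19 libraries between the extremes were ranked with the others but fell in neither class. They were used to look at the same relation, with the same score of the 3 ranking genes. In them 48 of 12683 genes varied with the score, all upward (2352 at an unadjusted p under 0.05). The 5 with the smallest p were Bgn, Rcn3, Creb3l3, Cstad and Cpz, a carboxypeptidase of the matrix. The 48 include matrix genes made with the ranking genes, such as Bgn, Col5a1, Fbln1 and Mmp2, whose rise is a description. Per unit of score Bgn rose by 1.87 ± 0.25 on the log2 scale. Rcn3, a calcium-binding protein of the secretory pathway, rose by 1.82 ± 0.25 (adjusted p = 0.00118). Creb3l3, a transcription factor known from liver, had a slope of 2.29 ± 0.32 (adjusted p = 0.00118) at a low level. In the ranked ends it was at 0.385 to 2.82 CPM (median 1.36) in the collagen-poor and 3.13 to 7.55 CPM (median 4.7) in the collagen-rich tumours, without overlap. Creb3l3 had a log2 fold change of 1.79 ± 0.29 (SE, edgeR adjusted p = 0.000277). These calls rested on combination day 5 replicate 1, the library with the highest score of the 19: without it 0 genes passed (536 at an unadjusted p under 0.05), and with the day and treatment terms 0 passed as well (1977 at p under 0.05). The count was 360 without anti-PD-1 day 2 replicate 1, 234 without combination day 5 replicate 2, 118 without combination day 2 replicate 5, 78 without vehicle day 5 replicate 2, 31 without anti-PD-1 day 5 replicate 2 and 30 without vehicle day 5 replicate 1. By sign, 1167 of the 1472 genes higher in the rich tumours and measured in the 19 had a positive slope (79.3%, against 49.6% of all genes), and 1159 of 1497 lower genes had a negative one (77.4%, against 50.4%). These signs come from the fit with combination day 5 replicate 1 and without day or treatment terms. They were not counted without that library or with those terms, so how far they rest on either was not tested.

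**Figure D5:**
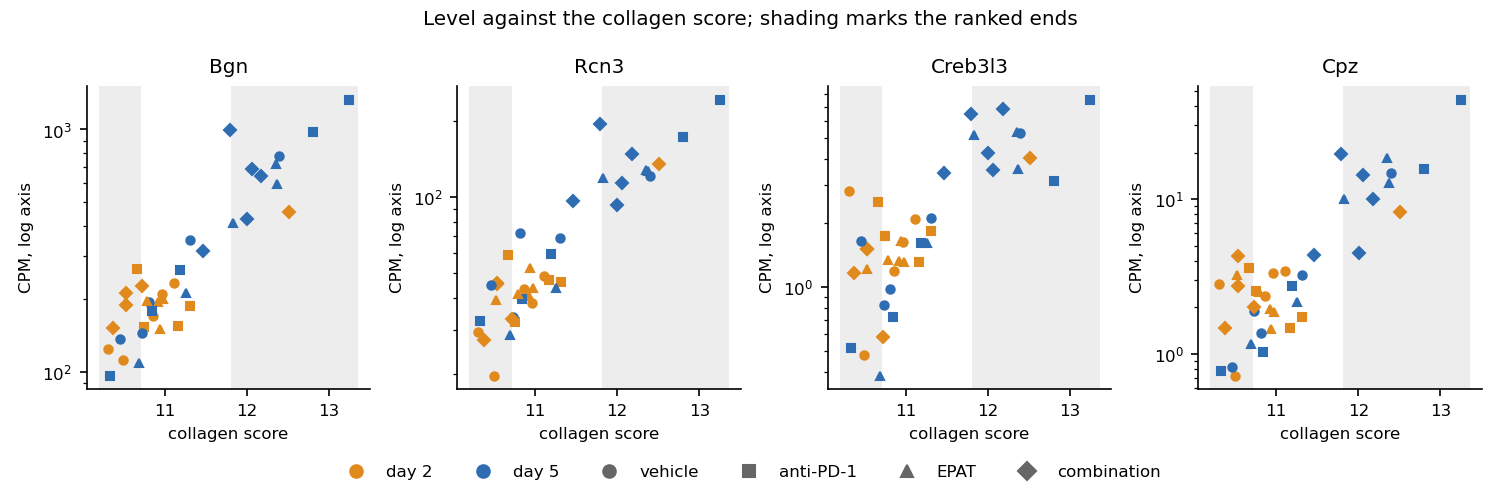
CPM (log axis) of Bgn, Rcn3, Creb3l3 and Cpz against the collagen score in all 39 libraries, coloured by day and shaped by treatment, with the ranked ends shaded. In the unshaded 19 libraries the point farthest right, combination day 5 replicate 1, is the highest of the 19 in the 4 panels.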

How the data were processed

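RNA from 39 tumours was made into 3′ QuantSeq libraries, which read transcript ends. The submitters' processing notes name bcl2fastq, STAR, featureCounts and limma, with the builds mm10 and GRCm38. The authors deposited raw counts per gene and a table of log2 CPM; both were used as deposited, the log2 table in an alternative only. Totals ran from 8385741 to 15558113 counts. The members and gene lists were chosen with earlier results of these data known. Rich and poor tumours were compared with edgeR 4.0.16 (R 4.3.3, TMM scaling, filterByExpr with a minimum count of 10, quasi-likelihood test, Benjamini-Hochberg adjustment), and alternatives used DESeq2 1.42.0 and limma 3.58.1. On simulated counts of 13668 genes the rich against poor test called 93% of genes changed 2-fold and 100% of those changed 4-fold, with 8 false among 201 calls. Genes were named by a rule: up to 15 per direction by fold change among called genes with at least 9 of 10 rich libraries beyond the poor median, up to 5 per list (8 for matrix and stromal lists) by p, 14 stated genes, and the 5 smallest p for the slope. Adgre1, Aurka, Cdk1, Cxcl9, Ddr2, Dkk2, Fabp4, Fst, Ltbp1, Ptges, Twist1, Vim fall outside it and were chosen after their values were seen.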

Additional observations from a re-analysis of the deposited data

Results flagged for a closer look

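Of 84 sets of 10 libraries examined for a value far from the others by Dixon's test, 11 held one, and chance flags about 1 in 20. List values here are mean log2 CPM of one library against the median of its class. Combination day 2 replicate 2 accounted for 5 of them among the collagen-rich tumours: T cell genes at 0.0989 (class median 4.06), cytotoxic and natural killer genes at 0.932 (3.87), B and plasma cell genes at 0.218 (2.34), interferon response genes at 4.82 (6.58) and, on the high side, hypoxia and glycolysis genes at 7.33 (5.16). In it Slc2a1, the glucose transporter of hypoxic cells, was at 266 CPM. Among the rich tumours, anti-PD-1 day 5 replicate 3 was high in matrix proteases and inhibitors, at 6.63 (6.20).

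Among the collagen-poor tumours, anti-PD-1 day 2 replicate 3 was high in collagen processing enzymes at 5.39 (5.16) and low in TGF-beta signalling at 4.99 (5.30). Vehicle day 2 replicate 2 was low in fibroblast cytokines at 3.31 (4.08), and vehicle day 2 replicate 3 was high in cell cycle genes at 6.63 (6.19). EPAT day 5 replicate 3 had 12.9% of its counts on Gm42418 (3.17%).

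The difference between rich and poor tumours itself differed between day 2 and day 5 for 274 genes by edgeR's interaction term, 140 in one direction and 134 in the other. The day 2 side rests on 1 collagen-rich library, combination day 2 replicate 2, so that the day and this library cannot be told apart.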

How the results depend on the processing

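Of 3259 genes called, the count was 1705 with day, anti-PD-1 and EPAT as terms, 1787 with the 8 group means, 1336 with the skeletal muscle score, 1371 with ranking on Col3a1 alone and 346 among day 2 libraries. In fits chosen after seeing the data it was 2061 without the 2 libraries with most skin genes and 1919 with day alone. With lung transcripts as a term, also chosen after seeing the data, it was 2241, and with the adipocyte score 3769. It stayed within 1.5 times under DESeq2 (4139), limma-trend on the deposited log2 table (3426), RLE (3244), library totals (2730), no filter (2881), a stricter filter (3202) and 5 or 13 libraries per end (2298 and 2526). Leaving out each library gave 2324 to 3953. For the slope in the 19 other libraries, 48 calls became 0 with the day and treatment terms, 4 by limma-trend, 42 with RLE and 0 to 360 when each library was left out in turn (added after seeing the data). The 274 genes of the interaction with day became 778 with anti-PD-1 and EPAT terms. The difference in library totals, 421043 counts, was -408070 with 5 libraries per end (exact permutation p = 0.738).

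Directions reversed for these log2 fold changes. Among day 2 libraries Adgre1 was -0.62, Cd274 was -2.03, Cd8a was -7.53, Ddr2 was 0.31, Draxin was -1.30, Kit was -0.14, Lmod3 was -0.36, Ltbp2 was -0.96, Mitf was -0.12, Myh3 was -0.59, Myh8 was -1.40, Pdcd1 was -3.23, S100a9 was -1.55, Tgfb1 was -0.71. Cd274, 0.04 in the 10 against 10 comparison, was -0.41 with day, anti-PD-1 and EPAT as terms, -0.22 with the 8 group means, -0.36 with 5 libraries at each end, -0.014 with ranking on Col1a1 alone, -0.21 with ranking on Col3a1 alone, -0.10 with lung transcripts as a term, -0.20 leaving out the 2 libraries with most skin genes, -0.032 with day alone as a term, -0.086 to 0.49 when each library was left out in turn (below 0 without vehicle day 5 replicate 3, without vehicle day 2 replicate 2, without vehicle day 2 replicate 3, without EPAT day 5 replicate 3, without EPAT day 2 replicate 5, without combination day 5 replicate 3). Cxcl9, -0.37 in the 10 against 10 comparison, was 0.38 among day 5 libraries. Ddr2, -0.14 in the 10 against 10 comparison, was 0.021 with skeletal muscle score as a term. Fabp4, 0.44 in the 10 against 10 comparison, was -0.43 with ranking on TMM-scaled CPM. Lyve1, 0.22 in the 10 against 10 comparison, was -0.0055 with ranking on TMM-scaled CPM, -0.080 with ranking on Col1a2 alone, -0.16 with lung transcripts as a term, -0.57 to 0.63 when each library was left out in turn (below 0 without combination day 2 replicate 2). Pdcd1, 0.62 in the 10 against 10 comparison, was -0.038 with the 8 group means. The day 2 fit has 1 collagen-rich library.  No paired analysis was possible because the labels pair no collagen-rich library with a collagen-poor one: replicate numbers were given in accession order and only name a library. Counts near the low end limit genes such as Cstad and Creb3l3, and 3′ libraries do not separate transcript isoforms.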
